A study of Arabidopsis thaliana with 6 samples.

Results

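AT5G62350, AT5G47330, AT2G23910 and AT2G27420 are 4 nuclear genes of Arabidopsis thaliana whose array signals differed by 9.07-fold or more between wild-type samples of the same ecotype, against 1.71-fold or less between epiF3 samples. Each was measured by 1 probe set naming that gene alone, so the set is 4 of 13355 genes named in this way, and its probe sets are 4 of 22746 for plant transcripts. The genes were chosen by their log2 values on these arrays, wide and split over the wild-type arrays and narrow over the epiF3 arrays, so those values are given here as a description, with no test. The study measured RNA from the aerial part of 30-day-old plants on Affymetrix expression arrays, with 3 biological replicates of Col-0 wild type and 3 of epiF3, a line in the same Col-0 ecotype. Both groups grew in metro mix under 12-hour days at 22 degrees, and the protocol describes extraction from each plant. In the description field the epiF3 samples are instead named as albino msh1 mutants, and how that name relates to epiF3 is not settled by the labels. The replicates are called biological, and whether an array held 1 plant or several is not stated further.

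The 4 genes belong to families with different biochemistry. AT5G62350 encodes a member of the plant invertase and pectin methylesterase inhibitor family, small proteins of the secretory pathway that bind either invertases, which split sucrose, or pectin methylesterases, which strip methyl groups from cell wall pectin. AT5G47330 encodes an alpha/beta-hydrolase of the palmitoyl-protein thioesterase type, enzymes best known in animals for removing fatty acyl groups from proteins. AT2G23910 encodes an NAD(P)-binding reductase related to cinnamoyl-CoA reductase, the enzyme that opens the branch from phenylpropanoids to lignin. AT2G27420 encodes a papain-like cysteine protease, a family with roles in protein turnover, senescence and defence.

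AT5G62350 had the widest spread of any probe set on these arrays. Its log2 signal was 9.31 on wild type replicate 1, 2.09 on wild type replicate 2 and 10.35 on wild type replicate 3. On the epiF3 arrays it was 9.83, 10.21 and 9.91. A single wild-type array was therefore low, and the other two lay on either side of the epiF3 values. The highest wild-type value was 306-fold above the lowest on the linear scale, against 1.3-fold in epiF3. In these bulk samples, fewer cells expressing a gene and less of its RNA per cell cannot be told apart.

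AT5G47330 was high on a different wild-type array. Its signal was 3.23 and 3.38 on wild type replicates 1 and 2 and 7.24 on wild type replicate 3, a 16.1-fold span. The epiF3 arrays read 6.16, 6.71 and 6.93. Here the other two wild-type arrays were within 0.15 log2 units of each other, and the epiF3 arrays lay nearer the high wild-type array. On wild type replicate 1, which was high for AT5G62350, this gene was at its lowest value.

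AT2G23910 and AT2G27420 shared another arrangement, with wild type replicate 1 alone on the high side. AT2G23910 read 7.18 on wild type replicate 1, 3.99 on replicate 2 and 3.77 on replicate 3. In epiF3 it read 6.01, 6.08 and 5.94. AT2G27420 read 6.85, 3.67 and 3.73 on the wild-type arrays in the same order and 5.84, 6.12 and 6.01 in epiF3. For both genes the epiF3 arrays formed an intermediate level, above both low wild-type arrays and below the high one. The mean epiF3 level was 1.17 log2 units below wild type replicate 1 for AT2G23910 and 0.86 below it for AT2G27420. For AT5G62350 and AT5G47330 the mean epiF3 level was 0.37 and 0.64 below the highest wild-type array.

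**Figure D1:**
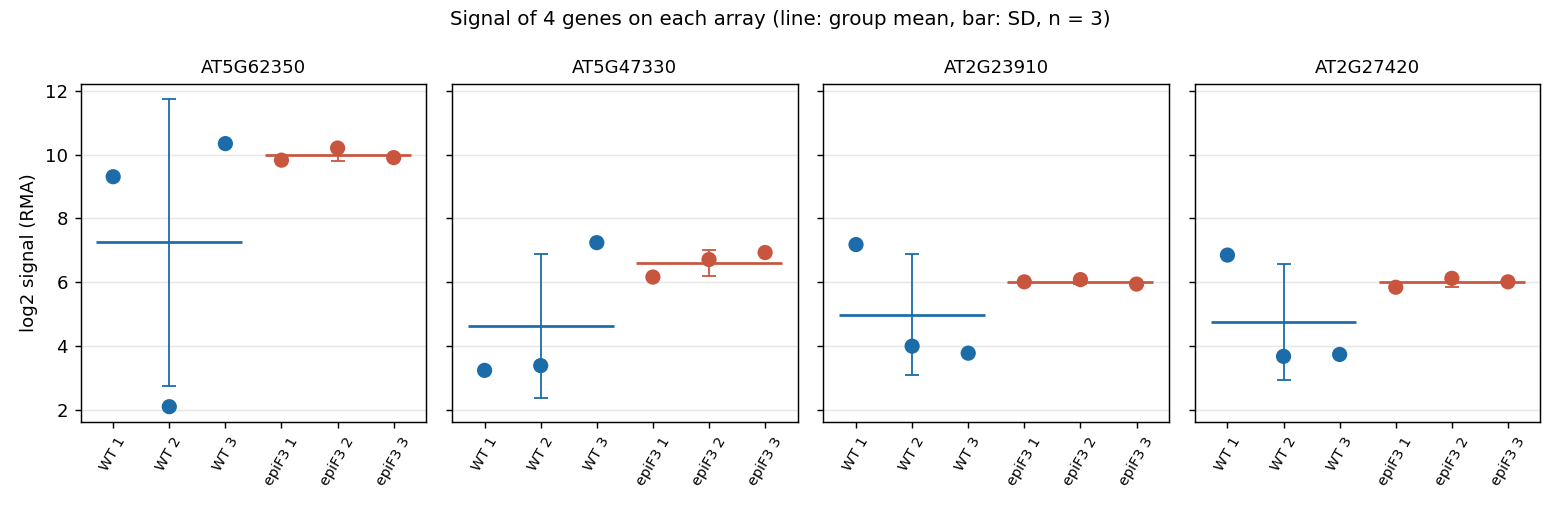
Log2 signal of the 4 genes on each of the 3 wild-type (WT, blue) and 3 epiF3 (red) arrays, with a line at each group mean and a bar of 1 SD (n = 3). Wild type replicate 2 is low at 2.09 for AT5G62350, wild type replicate 3 is high at 7.24 for AT5G47330, and wild type replicate 1 is high for AT2G23910 (7.18) and AT2G27420 (6.85).

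The wild-type values were split into levels rather than evenly spread, as the choice of the genes for a split would give. The larger of the gaps between neighbouring wild-type values made up 87.4% of the range for AT5G62350, 96.1% for AT5G47330, 93.6% for AT2G23910 and 98.2% for AT2G27420. With 3 values in a group, such a split describes these arrays and cannot show that a gene has 2 states. No detection calls were used, so "off" is not established for any low value. For AT5G62350 the low value ranked at the 16.3 percentile of its array and lay close to the array's 10th percentile of 1.93, where array signals understate a drop. Low values of the other genes ranked between the 39.1 and 46.2 percentiles of their arrays. Some markers of other tissues reached similar levels here. The root genes PYK10, EXPA18 and AT4G11290 read up to 4.51, 3.52 and 3.43, and the anther gene AT3G28840 up to 3.5. The other markers were lower, with the root genes EXPA7 and AT2G25980 and the anther gene AMS at 2.63 or less. With markers on both sides and no detection calls, these low values of 3.23 to 3.99 are not shown to lie above background.

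Group means of these genes depended on single wild-type arrays. On the log2 scale AT5G62350 averaged 7.25 ± 4.5 in wild type and 9.99 ± 0.2 in epiF3 (SD, n = 3 each), a difference of 2.73. That difference was 0.15 with wild type replicate 2 left out and 4.28 with replicate 3 left out. AT5G47330 averaged 4.62 ± 2.27 and 6.6 ± 0.4 (SD, n = 3 each), a difference of 1.98 that was 1.29 with wild type replicate 1 left out and 3.29 with replicate 3 left out. AT2G23910 averaged 4.98 ± 1.91 and 6.01 ± 0.07, and AT2G27420 averaged 4.75 ± 1.82 and 5.99 ± 0.14 (SD, n = 3 each). Their differences of 1.03 and 1.24 became 2.13 and 2.29 without wild type replicate 1. They were 0.53 and 0.70 when wild type replicate 2 was left out, and 0.42 and 0.73 when replicate 3 was.

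For all 4 genes, every epiF3 value lay inside the wild-type range, an arrangement found in 16.0% of all plant probe sets. None of the 4 had groups that did not overlap, against 16.9% of plant probe sets. The choice of the genes used these same values, so nothing is read from either share. When arrays were averaged on the linear scale, a comparison chosen after seeing the data, the group means came closer. The log2 of the linear mean was then 9.34 in wild type and 9.99 in epiF3 for AT5G62350, and 5.83 and 6.64 for AT5G47330. It was 5.87 and 6.01 for AT2G23910, and 5.56 and 5.99 for AT2G27420. For AT2G23910 the excess in epiF3 shrank from 1.03 with log2 means to 0.15 with linear means.

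Spreads of this size were rare. The range over the 3 wild-type arrays, taken as the highest minus the lowest log2 value, had a median of 0.294 over all plant probe sets, and the range over the epiF3 arrays had a median of 0.348. The 4 genes had wild-type ranges of 8.26, 4.01, 3.41 and 3.18. No probe set had a wider wild-type range than AT5G62350, 7 had a wider one than AT5G47330, 26 than AT2G23910 and 39 than AT2G27420. Their epiF3 ranges of 0.38, 0.77, 0.14 and 0.28 were not all small for this table. They exceeded those of 54.9% of probe sets for AT5G62350, 88.6% for AT5G47330, 12.6% for AT2G23910 and 37.9% for AT2G27420. A wild-type range of at least 3 with an epiF3 range of at most 1 was met by 41 of 22746 plant probe sets (0.18%), the 4 genes among them. That count, and the classes described next, rest on single arrays: with ranges over the arrays left, it was 7 when wild type replicate 2 and 5 when wild type replicate 3 was left out. The mirror image, wide in epiF3 and narrow in wild type, was met by 0 probe sets.

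**Figure D2:**
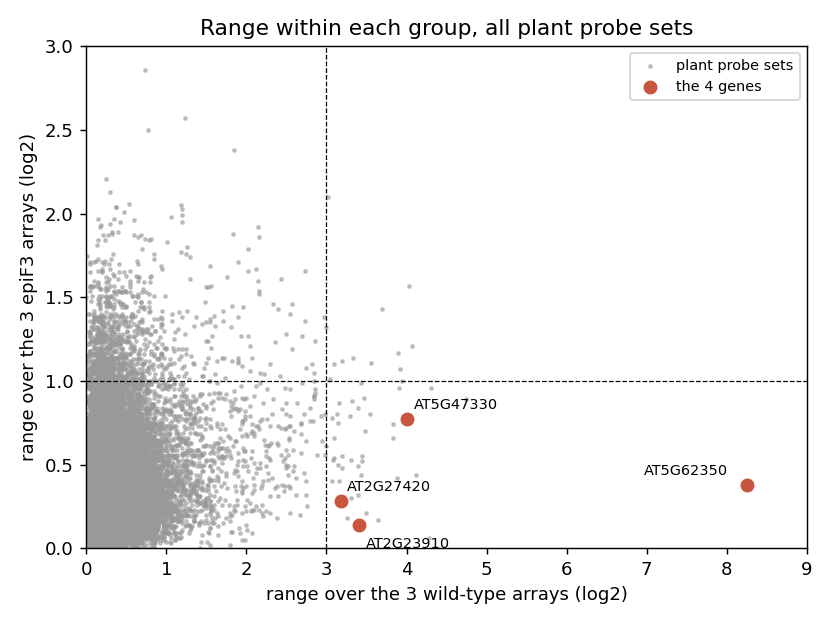
Range (highest minus lowest log2 value) over the 3 wild-type arrays against the range over the 3 epiF3 arrays, 1 grey point per plant probe set, with dashed lines at 3 and 1. The 4 genes (red) lie at the lower right, and AT5G62350 stands apart at a wild-type range of 8.26.

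The 4 genes did not follow the arrangement that most of these 41 probe sets shared. The genes were chosen by these same values, so their place among the 41 is a description and nothing is read from it. In 31 of the 41 (75.6%), wild type replicate 3 stood alone on the low side, and 0 of the 4 genes were among them. Wild type replicate 1 stood alone on the high side in 2 probe sets, which were AT2G23910 and AT2G27420. Wild type replicate 2 stood alone on the low side in 3, one of them AT5G62350, and wild type replicate 3 stood alone on the high side in 2, one of them AT5G47330. The epiF3 mean was nearer the lowest wild-type array in 34 of the 41 and nearer the highest in 7, and the 4 genes were among the 7.

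**Figure D3:**
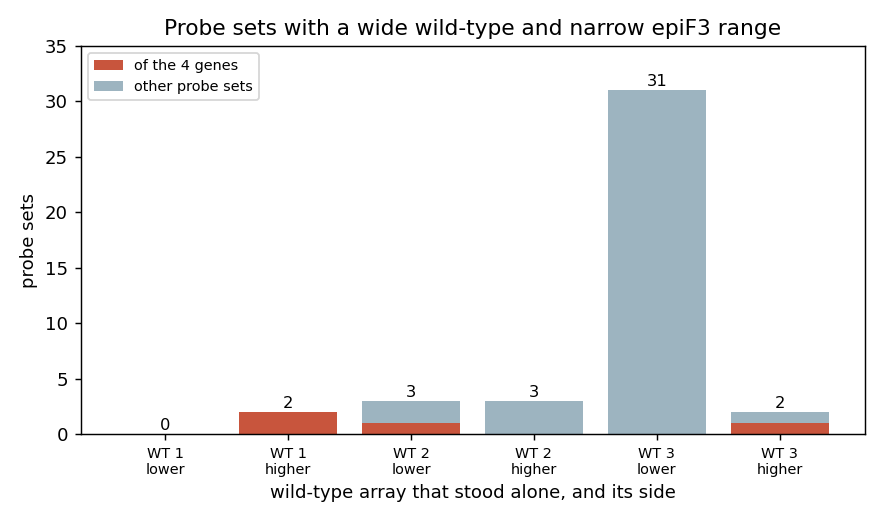
Number of probe sets with a wild-type range of at least 3 and an epiF3 range of at most 1 (41 in all), by the wild-type (WT) array that stood alone and its side. The 4 genes (red) fall in 3 of the smaller classes, and the largest class, with 31 probe sets, holds none of them. They were chosen by these same values, so their place is a description.

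Named genes of that larger class included transcripts known for quick responses to wounding and stress. ORA47, an AP2/ERF transcription factor of the jasmonate response, read 8.14, 8.68 and 4.77 on wild type replicates 1, 2 and 3 and 4.54 to 5.5 in epiF3. WRKY53, a transcription factor of senescence and defence, read 7.1, 8.06 and 4.51 and then 3.11 to 3.9. AT1G66090, a TIR-NBS disease resistance gene, read 5.7, 6.58 and 3.13. The other genes of the class that were named by wild-type range were AT3G48650 (4.28), AT3G02840 (3.83), AT1G05575 (3.48) and AT4G27654 (3.43). CML38, a calmodulin-like protein gene with a range of 3.47, had wild type replicate 2 alone on the high side. On wild type replicate 2, where AT5G62350 had its lowest value, ORA47 and WRKY53 had their highest.

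Among themselves the 4 genes gave 1 close pair. Over the 6 arrays, Pearson's r was 0.99 between AT2G23910 and AT2G27420, given as a description. Both genes were low on wild type replicates 2 and 3, intermediate in epiF3 and highest on wild type replicate 1, and r reflects these shared levels. Pearson's r was 0.68 between AT5G62350 and AT5G47330, and from -0.16 to 0.55 for the remaining pairs.

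Genes with the most similar profiles were sought among the 101 probe sets that name 1 gene and had a wild-type range of at least 2. Probe sets naming no gene or several were left out, and some of those lay closer. With them included, the closest named gene ranked 3 for AT5G62350, 7 for AT5G47330, 2 for AT2G23910 and 1 for AT2G27420. For AT5G62350 the closest was AT4G17470 (r = 0.952, 6 arrays), a palmitoyl-protein thioesterase-like gene and so a relative of AT5G47330 rather than of AT5G62350. AT4G17470 read 6.35, 3.86 and 6.27 in wild type and 6.23, 6.92 and 7.09 in epiF3. It too was low on wild type replicate 2 alone. Next came TBL26 (r = 0.895), of a family that acetylates cell wall polysaccharides, COR15A (0.881), a cold-regulated chloroplast protein gene, CSLA01 (0.854), a cellulose synthase-like gene of mannan synthesis, and AT1G52000 (0.756), a jacalin-type lectin gene. TBL26 read 8.69, 5.7 and 7.84 in wild type and 9.01 to 9.63 in epiF3. Wild type replicate 2 was low in the first 4 of these genes, with ranges of 2.22 to 2.99, far less than the 8.26 of AT5G62350.

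AT5G47330 was closest to AT1G52000 (r = 0.916, 6 arrays), which read 5.74, 5.05 and 7.38 in wild type and 6.86, 8.1 and 8.32 in epiF3. The others were AT3G28220 (0.88), a TRAF-like protein gene, AT2G38240 (0.853), an oxygenase gene of jasmonate hydroxylation, AT1G30250 (0.817) and COR15A (0.809). Wild type replicate 3 was alone on the high side in all of these but COR15A. AT2G38240 read 3.7, 3.57 and 6 in wild type, near the AT5G47330 profile, but it read 7.36, 8.97 and 8.82 on the epiF3 arrays, above every wild-type value.

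AT2G23910 and AT2G27420 had the closest companions. PDF1.2, a plant defensin gene used as a marker of jasmonate and ethylene signalling, read 7.65, 5.44 and 5.44 in wild type and 7.08, 6.97 and 6.89 in epiF3. Its r was 0.995 with AT2G23910 and 0.992 with AT2G27420 over the 6 arrays. PDF1.2 thus also had an intermediate epiF3 level, with a smaller wild-type range of 2.21. AT5G42760 (r = 0.967 with AT2G23910 and 0.977 with AT2G27420) and AT3G24460 (0.972 and 0.946) were on both lists. AT5G54130 (0.952) completed the list of AT2G23910. DFR (0.961), the dihydroflavonol reductase of anthocyanin synthesis and a distant relative of AT2G23910, completed that of AT2G27420. DFR read 7, 4.99 and 4.67 in wild type and 6.06, 6.56 and 6.95 in epiF3.

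**Figure D4:**
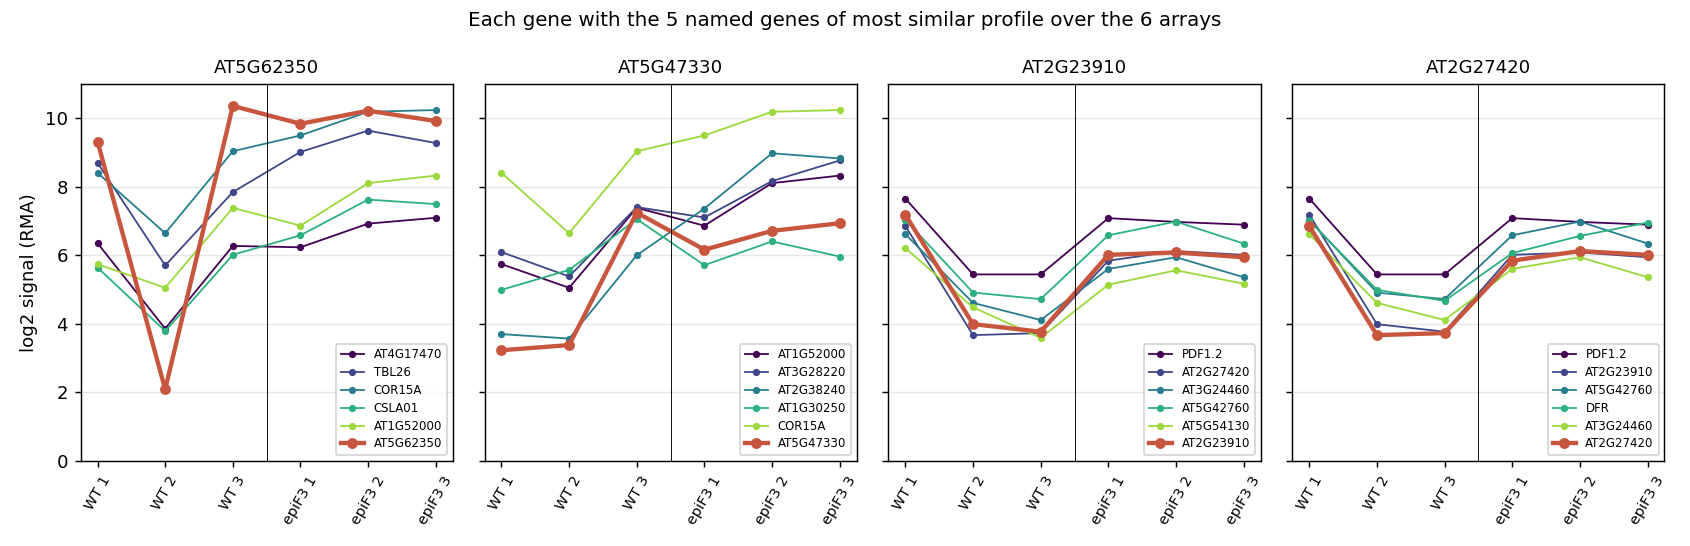
Log2 signal on the 6 arrays of each of the 4 genes (thick red) and of the 5 named genes with the highest Pearson r to it; lines join values of 1 gene and imply no order of arrays. Wild type (WT) replicate 2 is the low point for AT5G62350 and its first 4 companions, and WT replicate 1 is the high wild-type array for AT2G23910, AT2G27420 and theirs.

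Neighbouring genes on the chromosome had narrower wild-type ranges, of 1.95 or less. In the gene order of the RefSeq assembly TAIR10.1, AT5G62350 has relatives of its own family on both sides. AT5G62360, the next gene, read 6.36, 7.66 and 8.31 in wild type and 6.66, 7.42 and 6.99 in epiF3, so wild type replicate 2 was not its low array. Its wild-type range of 1.95 was still wide for this table, just under the 99th percentile of 1.98 over all plant probe sets. AT5G62340, 2 genes away on the other side, stayed between 1.91 and 2.22 in wild type. AT5G47340, a thioesterase-like gene next to AT5G47330, read 1.87, 1.8 and 1.93 in wild type, near the floor throughout, and AT5G47310 on the other side had a wild-type range of 0.32. The measured neighbours of AT2G23910 were AT2G23900 and AT2G23940, with wild-type ranges of 0.24 and 0.36. Those of AT2G27420 were AT2G27410 and AT2G27440, with ranges of 0.12 each. AT5G62340, AT5G47340, AT2G23900 and AT2G27440 read 2.33 or less on every wild-type array. That is near the floor, so their narrow ranges cannot show whether they shared a drop. AT2G27410 read 3.18, 3.13 and 3.05 in wild type. These values lie below the low values of 3.23 to 3.99 that are not shown to exceed background, so its range has the same limit. In limma, adjusted p for a difference between epiF3 and wild type was 0.609 or higher in all 8 measured neighbours.

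Related genes, which the choice of the 4 did not use, were compared between epiF3 and wild type with limma over the whole table. Of 107 listed relatives in 5 families, 63 were measured under a name, and 0 passed an adjusted p of 0.05 in limma, with 9 (14.3%) at an unadjusted p under 0.05, against 10.9% of all plant probe sets. Over the whole table, a total of 61 probe sets (0.268%) passed with a higher and 75 (0.33%) with a lower level in epiF3. These counts depended on single arrays: they were 115 and 287 with wild type replicate 3 left out and 11 and 22 with epiF3 replicate 2 left out, and ran from 11 to 115 and from 22 to 287 over all 6 arrays left out in turn. The median difference was 0.099 for 15 genes of the invertase and pectin methylesterase inhibitor family and -0.0727 for 11 pectin methylesterases, their targets. It was 0.419 for 6 palmitoyl-protein thioesterase-like hydrolases, 0.206 for 13 cinnamoyl-CoA reductase-type genes and -0.0272 for 18 papain-like cysteine proteases. Over all plant probe sets it was 0.0301.

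The relative with the smallest p in each family is given next. The inhibitor-family gene AT3G47380 had a difference of 0.94 with a limma adjusted p of 0.466, and PME61, a pectin methylesterase, one of -0.68 with an adjusted p of 0.165. The thioesterase-like AT4G17483 was at 0.41 (limma adjusted p = 0.236), the reductase AT5G14700 at 0.44 (0.271) and the protease AT3G49340 at -0.37 (0.327).

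Wide wild-type ranges were seen in few relatives, though in a larger share than among all plant probe sets. A range of at least 2 was found in 3 of the 63 (4.76%), against 0.976% of all plant probe sets, and a range of at least 1 in 6 (9.52%), against 5.02%. Those with at least 2 were AT4G17470 (2.49), DFR (2.33) and the pectin methylesterase ATPMEPCRB (2.07). ATPMEPCRB read 3.93, 4.75 and 2.67 in wild type, with wild type replicate 3 low. In the other families the widest were AT5G62360 (1.95) among the inhibitors and the cathepsin B-like AT1G02300 (1.47) among the proteases.

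**Figure D5:**
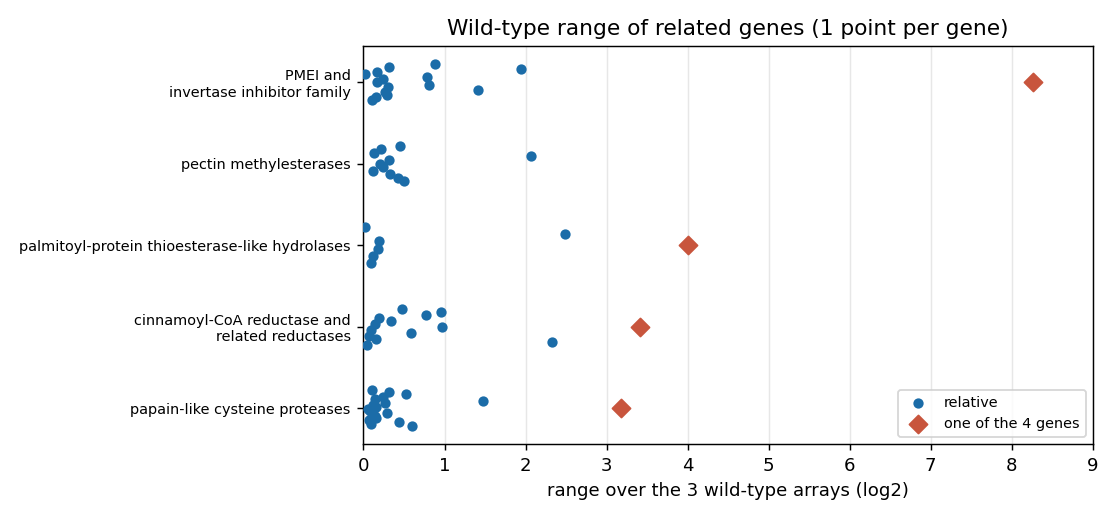
Range over the 3 wild-type arrays (log2) of each measured relative (blue, 1 point per gene) and of the 4 genes (red diamonds), by family. Each of the 4 genes has a wider range than every measured relative in its family, as its choice for a wide range would give.

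Several other measures differed between the wild-type arrays. STZ, a zinc-finger gene of the early stress response, read 8.23, 9.19 and 5.49 on wild type replicates 1, 2 and 3. Of the 18 early stress genes listed, 3 were measured under a name (STZ, WRKY53 and AT1G20823), and their summed log2 level ran from 14.91 to 23.57 over the wild-type arrays and from 13.59 to 16.21 over the epiF3 arrays. All 3 had negative differences, with a median of -1.51, and 0 passed in limma, with 1 at an unadjusted p under 0.05, a level met by 10.9% of all plant probe sets. Without wild type replicate 3 all 3 passed, with limma adjusted p of 0.00656 for WRKY53, 0.0339 for AT1G20823 and 0.046 for STZ. Over all plant probe sets, calls in that setting also rose, to 115 higher and 287 lower from 61 and 75. The array left out was the lowest wild-type array for all 3 genes (4.51, 4.91 and 5.49). Leaving it out therefore raised their wild-type means, and the passes depend on which array was removed. GI, the 1 of 14 clock genes measured under a name, read 4.93, 6.25 and 6.99 in wild type and 5.93, 5.54 and 4.87 in epiF3. The part of stress transcripts or of the clock in the levels of the 4 genes was not tested.

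Array quality and tissue were compared in the same way. Array medians were 4.25 to 4.32 in wild type and 4.08 to 4.28 in epiF3. Over all plant probe sets, Pearson's r was 0.9888 between wild type replicates 1 and 2. Wild type replicate 3 had r of 0.9835 and 0.9809 with those arrays, and of 0.9869, 0.984 and 0.9704 with epiF3 replicates 1, 2 and 3. With the epiF3 arrays in the same order, r was 0.9837, 0.9831 and 0.9701 for wild type replicate 1. For wild type replicate 2 it was 0.9752, 0.9735 and 0.9613. Hybridization controls averaged 7.53, 7.11 and 8.21 on wild type replicates 1, 2 and 3, and 8.19, 8.36 and 10.53 on the epiF3 arrays. The difference between 3' and 5' probe sets of GAPDH, a measure of RNA integrity, was 0.46, 0.83 and 1.26 on the wild-type arrays and 0.6 to 0.84 in epiF3. The same difference was 3.2, 3.78 and 4.15 for actin in wild type and 3.45 to 3.73 in epiF3, and 1.35, 1.63 and 1.69 for ubiquitin in wild type and 1.57 to 1.77 in epiF3. All 3 were largest among wild-type arrays on replicate 3 and smallest on replicate 1. These measures moved between wild-type arrays too, and their part in the levels of the 4 genes was not tested. Leaf markers were strong on every array, with LHCB4.1, RCA and PRK, the 3 measured of 12 listed, between 10.8 and 12.9. The 5 measured of 7 root markers lay between 2.09 and 4.51, with summed levels of 14.6 to 14.98 in wild type and 13.84 to 15.29 in epiF3. The 2 measured of 6 anther and pollen markers lay between 2.16 and 3.5, and no listed flower or seed marker was measured under a name.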

How the data were processed

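Values were deposited as log2 signals, 1 for each probe set on each array. RMA and the affy package are named, without versions, per the submitters' processing notes. The log2 scale was read from the values. The background method, array dates and any batches are not stated in the sources used here, and no probe-level data were used. Precision is limited by 3 arrays per group. Array controls (64 of 22810 rows) were left out. The platform annotation names 1 gene for 13513 plant probe sets, several for 503 and none for 8730. RefSeq (TAIR10.1) matched 13484 of the 13513 and gave symbols and gene order. For genes with several probe sets the brightest was used.

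Groups came from titles. limma 3.58.1 in R 4.3.3 (lmFit, eBayes, two-sided, no block, Benjamini-Hochberg over 22746 probe sets, threshold 0.05) gave the calls, after a check on simulated data. Ranges, profiles and figures used Python 3.11.15, pandas 2.3.3 and matplotlib 3.10.9. The members and gene lists were chosen with earlier results of these data known. Named were the 4 members, the 5 genes most like each (Pearson r over 6 arrays, wild-type range of at least 2), the measured neighbours, the 10 widest wild-type ranges among genes with the wide and narrow pattern, and in each list the gene with the smallest p and the one with the widest wild-type range. Alternatives were median centring, quantile normalization, a filter on the dimmest 40%, weighting of arrays, a block for replicate number, other thresholds and leaving out each array.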

Additional observations from a re-analysis of the deposited data

Results flagged for a closer look

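The mean of the 18 hybridization controls, outside the plant gene comparisons, was higher on epiF3 replicate 3 than on any wild-type array, by 2.91 on the log2 scale relative to the wild-type mean. The plant probe sets set this array apart too. Its limma array weight of 0.3048 was the lowest of any array, the next being 0.7119 for wild type replicate 3. Each wild-type array had its lowest Pearson r with epiF3 replicate 3 (0.9701, 0.9613 and 0.9704 for wild type replicates 1, 2 and 3). With that array left out, the differences of the 4 genes were 2.77 for AT5G62350, 1.82 for AT5G47330, 1.06 for AT2G23910 and 1.23 for AT2G27420, against 2.73, 1.98, 1.03 and 1.24 with it.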

How the results depend on the processing

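The differences of the 4 genes were positive under all 36 alternatives tried. These alternatives reuse the same arrays and the values by which the genes were chosen, so that tally is no support for a higher level in epiF3. With 1 array left out the differences ran from 0.15 to 4.28 for AT5G62350, 1.29 to 3.29 for AT5G47330, 0.42 to 2.13 for AT2G23910 and 0.70 to 2.29 for AT2G27420. The epiF3 range of AT2G23910 was 0.05 after quantile normalization, against 0.14, and all other ranges of the 4 genes moved by less than 1 SD. Against 41 probe sets with the wide and narrow pattern, 177 had a wild-type range of at least 2, 6 one of at least 4, 17 an epiF3 range of at most 0.5, and 0 the mirror image. Leaving out 1 array, chosen after seeing the data, gave 5 to 48, with 7 when wild type replicate 2 and 5 when wild type replicate 3 was left out, where ranges rest on fewer arrays. Of the 4 genes, 2 kept the pattern at a wild-type range of at least 4 and 3 at an epiF3 range of at most 0.5. Against 61 probe sets higher and 75 lower, array weights gave 208 and 241, a threshold of 0.01 gave 9 and 24, and leaving out 1 array gave 11 to 115 and 22 to 287. The replicate block gave 26 and 48, but deviations of arrays with the same number were not positively correlated (r of -0.0775, -0.0424 and -0.0453). Leaving out 1 array gave 0 to 3 calls among listed genes, against 0, and every other setting gave 0. What causes these shifts was not tested.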
